A study of Mus musculus with 22 samples.

Results

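The 10 genes described here encode the main building blocks of the basement membrane: the collagen IV chains Col4a1 and Col4a2, the laminin chains Lama1, Lama5, Lamb1 and Lamc1, the nidogens Nid1 and Nid2, perlecan (Hspg2) and the collagen-binding glycoprotein SPARC (Sparc). They were chosen by name, as 10 of the 47729 genes in the deposited tables, and all 10 were found. Their RNA was counted in 22 libraries of mouse embryonic stem (ES) cells, a line of the early embryo that renews itself in culture. The study varied the copies of the Dux cluster, which encodes a transcription factor of the early embryo, and treated cells with a compound that lowers DNA methylation. Every culture was kept in serum with the cytokine LIF, and CRISPR-Cas9 was used to make the edited lines.

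In the untreated set, 3 Dux-KO libraries came from clones 15, 22 and 52, 4 Dux (n=1) libraries came from clones 17, 22, 31 and 40, and 3 libraries are titled E14-chen and called E14 here. In the treated set, cells named KO22, N22 and WT each gave 2 libraries with GSK-3484862, a compound that makes cells break down the DNA methyltransferase DNMT1, and 2 with its vehicle DMSO. KO22 and N22 (Dux-KO22 and Dux-N22 in the titles) are taken to be a Dux-KO and a Dux (n=1) line of 1 clone each, so genotype and clone cannot be told apart there. The compound was given for 3 days at a dose stated as 1 uM in the treatment protocol and as 2 uM in the design text. No title names a culture, a day or a batch, so each p-value measures the spread between these libraries only, and that spread may be technical. In the untreated set the edited libraries came from separate clones, whereas the E14 titles differ only by a number. The E14 libraries may thus hold no spread between lines, although the spread was estimated jointly for all groups of the set.

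A basement membrane is a thin sheet of matrix on which epithelial and endothelial cells rest. Laminin trimers of an alpha, a beta and a gamma chain form its first network on the cell surface, collagen IV trimers of Col4a1 and Col4a2 chains form a second, covalently linked network, and nidogens and perlecan join them. In the mouse embryo the primitive endoderm and the parietal endoderm that descends from it are rich sources of these proteins, and ES cells already make laminin.

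DNMT1 copies methylation at CG dinucleotides (CpG), so the promoters found for the members that rose or fell with the compound in all 3 genotypes are printed with their CpG in capitals. Methylation itself was not measured in these libraries. RefSeq promoters on build GRCm38.p6, each running from 250 bases before to 50 bases after the annotated start, were matched by symbol for 7 of the 10 genes: Col4a1, Col4a2, Lama5, Lamb1, Nid1, Hspg2 and Sparc. Col4a1 (chr8:11312777-11313076, minus strand), Col4a2 (chr8:11312555-11312854, plus strand) and Sparc (chr11:55420031-55420330, minus strand) rose with the compound, and Nid1 (chr13:13437352-13437651, plus strand) and Hspg2 (chr4:137468553-137468852, plus strand) fell.
Col4a1: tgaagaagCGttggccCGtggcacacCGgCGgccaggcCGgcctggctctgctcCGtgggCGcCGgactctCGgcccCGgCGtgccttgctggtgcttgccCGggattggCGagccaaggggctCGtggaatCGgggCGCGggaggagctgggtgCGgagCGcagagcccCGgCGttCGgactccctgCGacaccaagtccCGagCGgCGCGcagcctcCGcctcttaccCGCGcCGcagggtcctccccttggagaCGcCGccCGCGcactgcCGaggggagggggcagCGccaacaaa
Col4a2: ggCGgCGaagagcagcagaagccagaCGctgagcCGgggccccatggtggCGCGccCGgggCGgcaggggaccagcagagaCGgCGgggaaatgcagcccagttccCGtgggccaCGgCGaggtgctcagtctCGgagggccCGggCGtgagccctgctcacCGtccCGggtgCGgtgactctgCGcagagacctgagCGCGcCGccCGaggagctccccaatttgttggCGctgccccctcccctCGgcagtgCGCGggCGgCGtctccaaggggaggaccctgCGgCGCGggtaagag
Sparc: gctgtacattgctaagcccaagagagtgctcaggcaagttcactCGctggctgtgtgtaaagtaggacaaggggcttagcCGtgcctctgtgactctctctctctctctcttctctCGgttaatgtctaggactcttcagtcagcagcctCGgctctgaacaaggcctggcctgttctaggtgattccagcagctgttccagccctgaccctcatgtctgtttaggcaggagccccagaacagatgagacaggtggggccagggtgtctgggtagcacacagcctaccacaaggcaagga
Nid1: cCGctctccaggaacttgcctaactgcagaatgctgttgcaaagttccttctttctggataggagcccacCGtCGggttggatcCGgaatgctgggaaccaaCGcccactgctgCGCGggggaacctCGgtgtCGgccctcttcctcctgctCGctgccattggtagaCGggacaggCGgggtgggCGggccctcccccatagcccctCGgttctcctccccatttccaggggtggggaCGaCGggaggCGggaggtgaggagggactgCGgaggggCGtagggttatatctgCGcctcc
Hspg2: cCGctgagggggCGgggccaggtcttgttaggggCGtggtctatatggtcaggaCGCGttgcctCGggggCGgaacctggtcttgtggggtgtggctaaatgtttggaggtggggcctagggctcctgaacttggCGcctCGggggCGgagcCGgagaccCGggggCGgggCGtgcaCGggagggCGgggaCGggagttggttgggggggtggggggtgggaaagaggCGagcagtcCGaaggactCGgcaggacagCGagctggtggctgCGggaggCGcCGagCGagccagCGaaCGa

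Col4a1 and Col4a2 lie head to head, with annotated starts 21 bases apart, and their windows share 78 bases. They held 37 and 33 CpG, more than 94.4% and 91.4% of the 32851 promoters of the same length, whose median was 7 CpG. Hspg2 held 27 CpG, Lama5 24, Nid1 20 and Lamb1 18, each above the median. Sparc held 4, below it, so the 3 genes that rose in every genotype include the CpG-richest and the CpG-poorest promoters of the 7. The GC box, searched as GGGCGG on both strands, occurred 5 times in Hspg2, 4 times in Lama5, 3 times in Col4a2, 2 times in Lamb1 and once each in Col4a1 and Nid1, and it is present in 35.7% of all promoters. The CCAAT box, searched as CCAAT on both strands, occurred once each in Col4a1, Col4a2, Lamb1 and Nid1, against 37.4% of all promoters with at least 1. The TATA box (TATAAA, 13.6% of all promoters), the GATA site (searched as AGATAA, and also as TGATAA, as AGATAG and as TGATAG, 29.8%) and the SOX site (ACAATG, 12.6%) matched in none of the 7 windows.

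The libraries held 15803194 to 19427794 counted fragments. Few fragments were assigned to the edited gene. Duxf3 had 0 counts in all 4 KO22 libraries, 11 to 19 in N22 and WT with GSK-3484862 and at most 5 elsewhere. Those 5 were in the library labelled Dux-KO clone 22, so values for Dux-KO are given both ways, with all clones and with that library left out. Reads that map to several places were not counted, so Duxf3 counts do not show how active the Dux copies were. The cells expressed the ES cell markers Pou5f1, Nanog, Sox2, Zfp42, Esrrb, Klf4 and Dppa5a, which summed to 2407 to 3534 FPKM in every library. FPKM are fragments per kilobase of exon and per unit of library size, scaled with TMM factors within each set, so that levels can be set beside each other between genes.

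All 10 genes were expressed in every library, and their levels spanned a wide range. Over the 22 libraries Nid2 had the highest median level, 129 FPKM, followed by Sparc at 98.4 and Lamc1 at 91.5, whose order differed between groups (Lamc1 averaged above Sparc in N22 DMSO, WT DMSO, Dux (n=1) and E14), Hspg2 at 47.0, Nid1 at 40.9, Lama5 at 22.0, Lama1 at 12.9, Lamb1 at 8.05, Col4a1 at 3.26 and Col4a2 at 1.62 FPKM. The collagen IV chains were thus the lowest of the list, and the ranges of Nid2 (91.4 to 150.2), Sparc (61.3 to 132) and Lamc1 (57.6 to 100.02) overlapped. Summed over the 10 genes, levels stayed between 435.9 and 481.9 FPKM in the treated set and between 377.7 and 478.4 FPKM in the untreated set. In bulk RNA, fewer cells that express a gene and less RNA per cell cannot be told apart.

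Of the 10 genes, 9 changed with GSK-3484862 in KO22 (5 higher, 4 lower), 9 in N22 (4 higher, 5 lower) and 7 in WT (3 higher, 4 lower), at an adjusted p below 0.05 in edgeR's quasi-likelihood test. Over all 16641 genes tested, 46.0% were called in KO22 (24.8% higher, 21.2% lower), 53.0% in N22 (26.9% higher, 26.0% lower) and 56.8% in WT (28.7% higher, 28.1% lower), so a change was common over all genes. The members' median log2 change was 0.17 in KO22, -0.06 in N22 and 0.04 in WT, against 0.0039 in KO22, 0.0017 in N22 and 0.0035 in WT over all genes. Col4a1, Col4a2 and Sparc rose in all 3 genotypes, and Nid1, Nid2 and Hspg2 fell in all 3. Changes are given as log2 fold changes with 1 standard error (SE), and adjusted p-values are from edgeR.

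**Figure D1:**
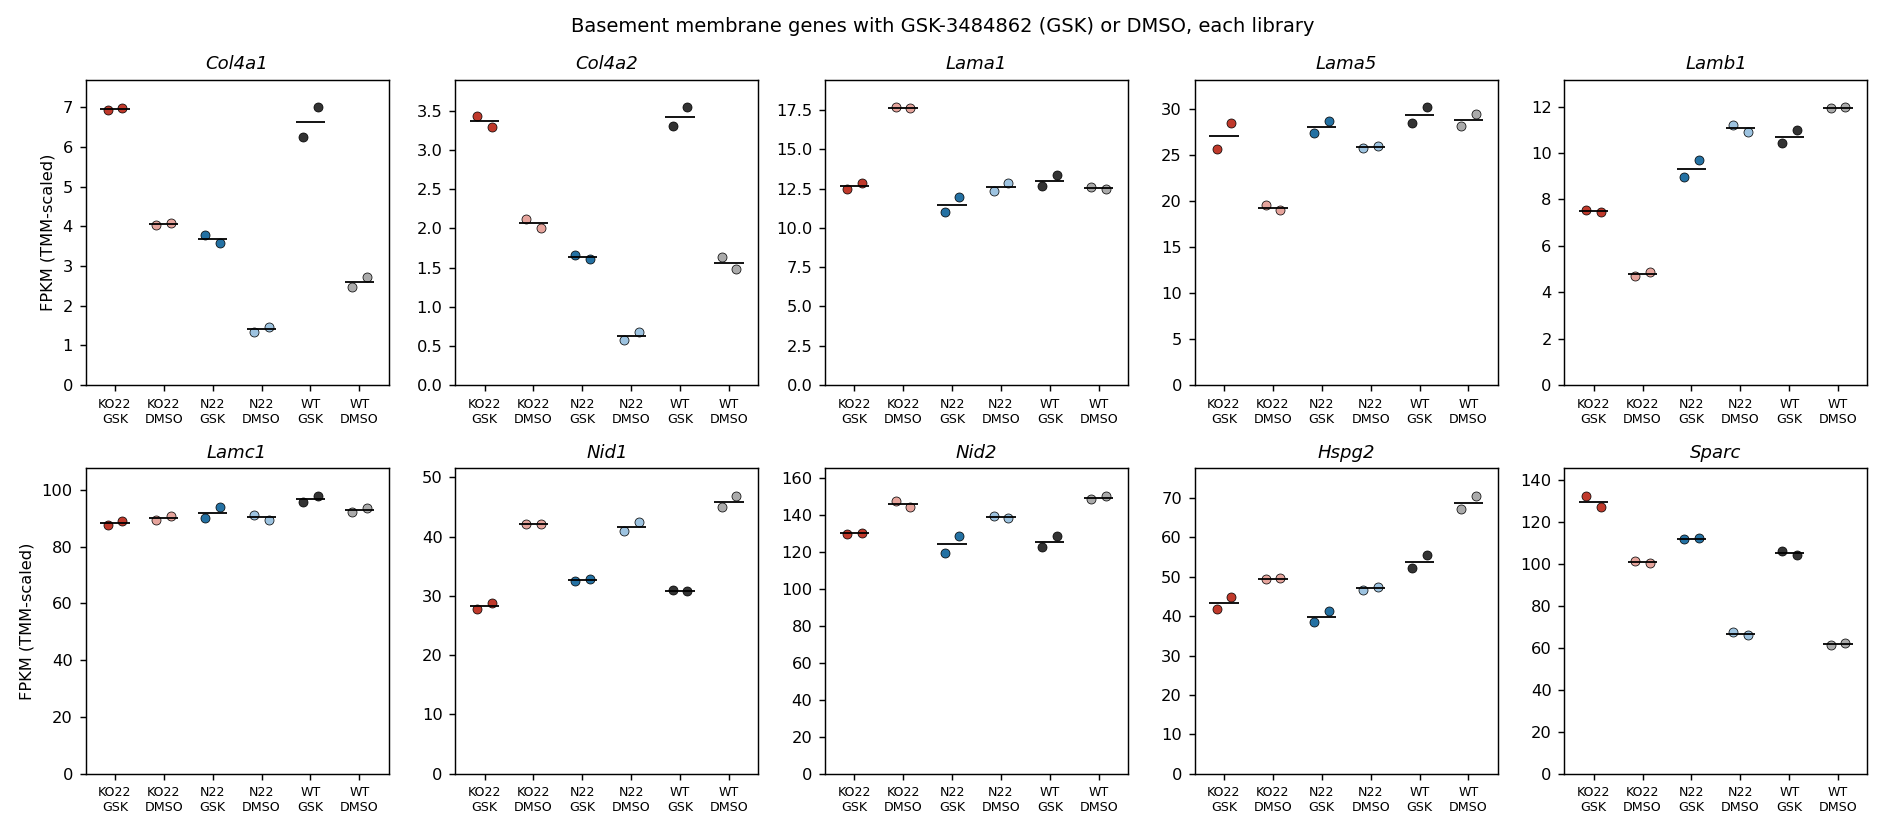
Level of each gene (FPKM, TMM-scaled) in each library given GSK-3484862 (GSK) or DMSO, for KO22, N22 and WT; each point is a library and each line the mean of 2. Col4a1, Col4a2 and Sparc lie higher with the compound in each genotype, whereas Nid1, Nid2 and Hspg2 lie lower.

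The collagen IV chains had the largest relative increases of the 10 genes in each genotype. Col4a1 (ENSMUSG00000031502, chromosome 8, 11198423 to 11312826, minus strand) stood at 6.94 and 6.99 FPKM in KO22 with GSK-3484862, against 4.04 and 4.08 FPKM with DMSO. It stood at 3.77 and 3.57 FPKM in N22 with the compound, against 1.35 and 1.46 with DMSO, and at 6.25 and 6.99 FPKM in WT with the compound, against 2.48 and 2.71 with DMSO. The compound libraries were above the DMSO libraries in each genotype with no overlap, and both KO22 libraries with the compound lay within the range of the WT libraries with the compound. The log2 change was 0.78 ± 0.07 in KO22 (adjusted p = 4.5e-14), 1.38 ± 0.09 in N22 (1.32e-20) and 1.35 ± 0.08 in WT (9.5e-24). The KO22 increase was smaller than that of WT by 0.57 ± 0.11 on the log2 scale (interaction contrast -0.57, adjusted p = 2.64e-05), and that of N22 differed from WT by 0.03 ± 0.12 (adjusted p = 0.915).

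Col4a2 (ENSMUSG00000031503, chromosome 8, 11312805 to 11449287, plus strand) encodes the chain that joins Col4a1 in the trimer, and its counts moved in parallel. Its level was 3.44 and 3.29 FPKM in KO22 with GSK-3484862, against 2.12 and 2.01 with DMSO. It was 1.66 and 1.61 FPKM in N22 with the compound, against 0.580 and 0.682 with DMSO, and 3.31 and 3.54 FPKM in WT with the compound, against 1.63 and 1.48 with DMSO. Again no compound library overlapped a DMSO library of its genotype. On the log2 scale it changed by 0.70 ± 0.11 in KO22 (adjusted p = 2.52e-07), 1.37 ± 0.15 in N22 (2.44e-12) and 1.14 ± 0.12 in WT (2.01e-13). The difference between the KO22 and WT responses, -0.44 ± 0.16, was called (adjusted p = 0.0306), but not by DESeq2 (0.0653), nor without KO22 DMSO 1 (0.0946), WT DMSO 2 (0.129), WT GSK 2 (0.0985) or KO22 GSK 2 (0.0818). The ratio of Col4a1 to Col4a2 stayed within 1.52 to 2.94 over all 22 libraries. Since counting ignored strand, 22 exon bases that both genes share cannot be assigned to 1 of them.

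Sparc (ENSMUSG00000018593, chromosome 11, 55394500 to 55420080, minus strand) encodes a secreted glycoprotein that binds collagen IV and other collagens. It stood at 132 and 127 FPKM in KO22 with GSK-3484862, against 101.4 and 100.4 with DMSO, at 112 and 112 FPKM in N22 with the compound, against 67.4 and 66.2 with DMSO, and at 106 and 104 FPKM in WT with the compound, against 61.3 and 62.2 with DMSO. KO22 thus had more Sparc than the other genotypes under both conditions. Its log2 change came to 0.36 ± 0.03 in KO22 (adjusted p = 2.94e-14), 0.75 ± 0.04 in N22 (1.14e-28) and 0.77 ± 0.04 in WT (2.53e-29). The KO22 response was 0.41 ± 0.05 log2 below that of WT (contrast -0.41, adjusted p = 4.75e-10).

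Of the 4 laminin chains, Lamb1, Lama5 and Lama1 responded differently in KO22 and in WT, and Lamc1 was called in no genotype. Lamb1 (ENSMUSG00000002900, chromosome 12, 31265234 to 31329644, plus strand), the beta chain of the laminins that ES cells make, stood at 7.55 and 7.45 FPKM in KO22 with GSK-3484862, against 4.69 and 4.89 with DMSO. In N22 it stood at 8.96 and 9.68 FPKM with the compound, against 11.2 and 10.9 with DMSO, and in WT at 10.4 and 10.98 FPKM with the compound, against 11.96 and 11.96 with DMSO. It was higher with the compound in KO22 and lower in the other genotypes, with no overlap in any. This was a log2 change of 0.65 ± 0.06 in KO22 (adjusted p = 9.51e-16), -0.25 ± 0.05 in N22 (5.6e-05) and -0.16 ± 0.05 in WT (0.00652). The WT call was lost in DESeq2 (adjusted p = 0.0505) and without WT GSK 1 (-0.12, 0.118). The responses of KO22 and WT differed by 0.81 ± 0.08 (adjusted p = 1.15e-13), the largest such difference among the 10 genes.

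Lama5 (ENSMUSG00000015647, chromosome 2, 180176373 to 180225859, minus strand) encodes the alpha chain of a laminin that supports ES cell attachment and self-renewal. Its level was 25.6 and 28.5 FPKM in KO22 with GSK-3484862, against 19.6 and 19.0 with DMSO, while it was 27.4 and 28.7 FPKM in N22 with the compound, against 25.8 and 26.0 with DMSO, and 28.5 and 30.2 FPKM in WT with the compound, against 28.1 and 29.5 with DMSO. The WT libraries overlapped between conditions and the KO22 libraries were far apart. In edgeR the log2 change was 0.49 ± 0.04 in KO22 (adjusted p = 1.08e-14), 0.12 ± 0.04 in N22 (0.0127) and 0.03 ± 0.04 in WT (0.595), and KO22 differed from WT by 0.46 ± 0.06 (4.84e-09). The N22 call was lost with a GC content offset (0.05, 0.291), without N22 DMSO 1 (0.11, 0.0791) and without N22 GSK 2 (0.08, 0.157).

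Lama1 (ENSMUSG00000032796, chromosome 17, 67697265 to 67822645, plus strand), the alpha chain of the earliest laminin of the embryo, moved the other way in KO22. It stood at 12.5 and 12.9 FPKM in KO22 with GSK-3484862, against 17.7 and 17.6 with DMSO, at 10.99 and 11.97 FPKM in N22 with the compound, against 12.4 and 12.9 with DMSO, and at 12.7 and 13.4 FPKM in WT with the compound, against 12.6 and 12.5 with DMSO. The KO22 DMSO libraries were the highest of the 12, and those with the compound lay among the other genotypes. The fitted log2 change was -0.48 ± 0.05 in KO22 (adjusted p = 9.33e-14), -0.14 ± 0.05 in N22 (0.013) and 0.06 ± 0.05 in WT (0.33), and KO22 differed from WT by -0.53 ± 0.07 (1.21e-09). The N22 call was lost in DESeq2 (0.0533), without N22 DMSO 2 (-0.11, 0.141) and without N22 GSK 1 (-0.07, 0.319).

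Lamc1 (ENSMUSG00000026478, chromosome 1, 153218922 to 153332786, minus strand), the gamma chain that pairs with Lamb1, was not called in any genotype. It stood at 87.4 and 88.8 FPKM in KO22 with GSK-3484862, against 89.4 and 90.7 with DMSO, at 90.0 and 93.8 FPKM in N22 with the compound, against 91.1 and 89.5 with DMSO, and at 95.7 and 97.7 FPKM in WT with the compound, against 92.0 and 93.5 with DMSO. The log2 change was -0.03 ± 0.03 in KO22 (adjusted p = 0.408), 0.03 ± 0.03 in N22 (0.485) and 0.06 ± 0.03 in WT (0.0811). The WT change passed the threshold in DESeq2 (0.08, adjusted p = 0.0159), with RLE factors (0.0150), with a GC content offset (0.00350), with only WT in the fit (0.0345) and without N22 GSK 1 (0.0343).

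**Figure D2:**
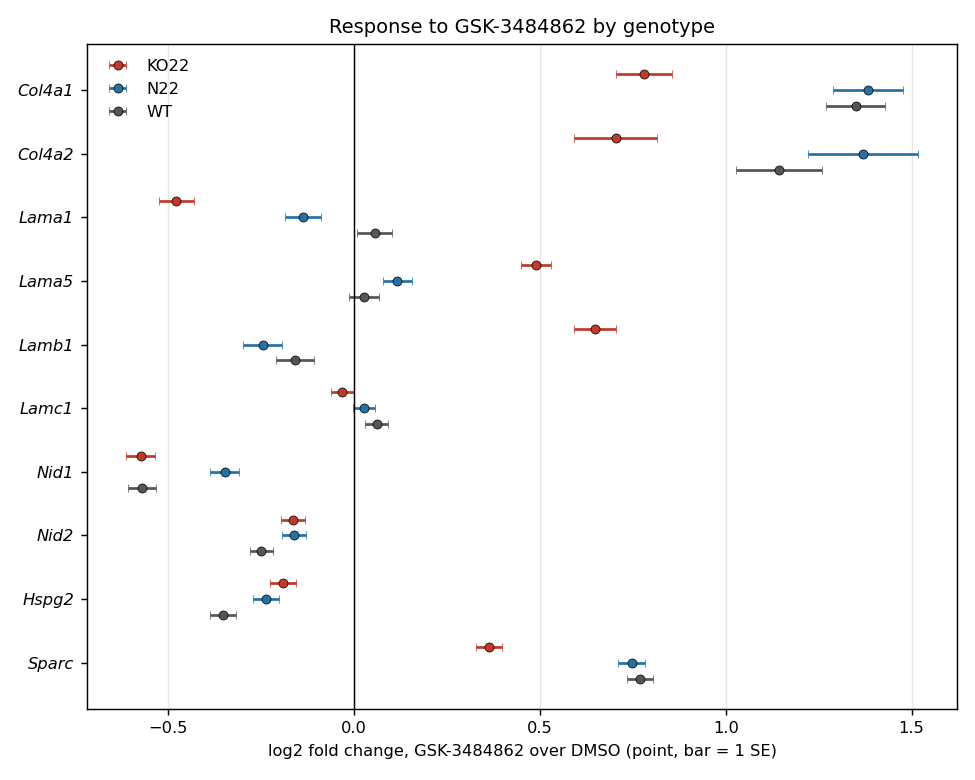
Log2 change with GSK-3484862 over DMSO for each gene in KO22, N22 and WT (point, with a bar of 1 SE, 2 libraries per group). Collagen IV and Sparc lie right of 0 in all 3 genotypes, while Lamb1 and Lama5 lie well right of 0 in KO22 and Lama1 left of it.

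The nidogens, which bridge the laminin and collagen IV networks, fell in each genotype. Nid1 (ENSMUSG00000005397, chromosome 13, 13437602 to 13512275, plus strand) stood at 27.8 and 28.9 FPKM in KO22 with GSK-3484862, against 42.1 and 42.2 with DMSO, at 32.5 and 32.9 FPKM in N22 with the compound, against 40.9 and 42.4 with DMSO, and at 31.0 and 30.8 FPKM in WT with the compound, against 45.0 and 46.8 with DMSO. No compound library reached the lowest DMSO library of the set. On the log2 scale it changed by -0.57 ± 0.04 in KO22 (adjusted p = 1.28e-20), -0.35 ± 0.04 in N22 (6.07e-12) and -0.57 ± 0.04 in WT (7.45e-21). Nid1 was the only member called for a difference in response between N22 and WT, by 0.22 ± 0.05 (adjusted p = 0.00301), where 11.1% of all genes were called (5.82% above 0, 5.26% below). Nid2 (ENSMUSG00000021806, chromosome 14, 19751257 to 19811787, plus strand) stood at 129.6 and 130.5 FPKM in KO22 with the compound, against 147 and 144 with DMSO, at 119.5 and 129 FPKM in N22 with the compound, against 139.6 and 138 with DMSO, and at 123 and 128 FPKM in WT with the compound, against 148 and 150.2 with DMSO. It was lower with the compound in every genotype with no overlap, with log2 changes of -0.17 ± 0.03 in KO22 (adjusted p = 1.42e-05), -0.16 ± 0.03 in N22 (1.57e-05) and -0.25 ± 0.03 in WT (5.21e-10). Of the exon bases of Nid2, 7.9% also belong to Rtraf, so that its values are less certain than those of the other members.

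Perlecan, the heparan sulfate proteoglycan of basement membranes encoded by Hspg2 (ENSMUSG00000028763, chromosome 4, 137468769 to 137570630, plus strand), fell as well. It stood at 41.9 and 44.8 FPKM in KO22 with GSK-3484862, against 49.3 and 49.7 with DMSO, at 38.5 and 41.2 FPKM in N22 with the compound, against 46.6 and 47.5 with DMSO, and at 52.2 and 55.5 FPKM in WT with the compound, against 67.1 and 70.4 with DMSO. WT was the highest genotype under both conditions. Its log2 change came to -0.19 ± 0.03 in KO22 (adjusted p = 9.88e-06), -0.24 ± 0.03 in N22 (1.15e-07) and -0.35 ± 0.03 in WT (3.21e-12). The smaller fall in KO22 than in WT (0.16 ± 0.05, adjusted p = 0.00852) was not called by DESeq2 (0.0840), nor without WT DMSO 2 (0.0922), WT GSK 1 (0.106) or KO22 GSK 2 (0.114), and it turned to -0.04 with a GC content offset (0.513).

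The response of 7 members therefore differed between KO22 and WT (3 contrasts above 0 and 4 below), and 31.8% of all genes were called in that contrast (18.3% above 0, 13.5% below). Lamb1, Lama5 and Hspg2 had a positive contrast and Col4a1, Col4a2, Sparc and Lama1 a negative one. Lamc1 was called as well under 5 alternatives, with contrasts of -0.12 in DESeq2 (adjusted p = 0.0196), -0.12 with RLE factors (0.0203), -0.13 with no filter on low counts (0.023), -0.15 with a GC content offset (0.00187) and -0.15 with the replicate block and that offset (0.00108). The comparisons of KO22 and N22 with WT share the WT libraries.

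With DMSO, collagen IV was higher in KO22 and lower in N22 than in WT. In KO22, 8 members were called (4 higher, 4 lower), where 51.9% of all genes were (23.4% higher, 28.5% lower), and in N22 7 members (1 higher, 6 lower), where 25.4% of all genes were (11.5% higher, 13.9% lower). The log2 difference from WT was 0.64 ± 0.08 in KO22 (adjusted p = 9.49e-10) and -0.89 ± 0.10 in N22 (4.98e-11) for Col4a1, and 0.41 ± 0.12 in KO22 (0.0035) and -1.30 ± 0.15 in N22 (1.34e-10) for Col4a2. For Col4a2 this is a level 2.46-fold lower in N22. The KO22 call for Col4a2 was lost without WT DMSO 2 (0.34, 0.0579).

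Several laminin chains differed between KO22 and WT with DMSO, and WT itself differed from E14 of the untreated set. Lamb1 averaged 11.96 FPKM in WT DMSO, 4.79 in KO22 DMSO and 5.63 in E14. Lama5 averaged 28.8, 19.3 and 17.3 FPKM in the same order, and Lama1 12.5, 17.65 and 14.4. The sets were scaled apart, and WT was not tested against E14. Lamb1 was 2.50-fold lower in KO22 than in WT (log2 -1.32 ± 0.06, adjusted p = 2.18e-31), Lama5 was lower (-0.58 ± 0.04, 2.17e-17), Lama1 was higher by 0.49 ± 0.05 (2.11e-14), and Lamc1 did not pass (-0.04 ± 0.03, 0.245). In N22, Lamb1 (-0.11 ± 0.05, 0.1) and Lama1 (0.01 ± 0.05, 0.889) did not pass, and Lama5 was called at -0.15 ± 0.04 (0.00301), but not without WT DMSO 2 (-0.12, 0.0901). Hspg2 was lower than in WT in both clones, at -0.47 ± 0.03 in KO22 (4.13e-16) and -0.55 ± 0.03 in N22 (3.51e-17). Sparc was 0.71 ± 0.04 higher in KO22 (2.99e-27) and 0.11 ± 0.04 higher in N22 (0.0122), a call lost without N22 DMSO 1 (0.115) or WT DMSO 1 (0.0981). Nid1 was called slightly lower in both (-0.12 in KO22, -0.14 in N22), but not without WT DMSO 2 (0.110 and 0.103) or, in N22, without N22 DMSO 1 (0.0956). Nid2 was called lower in N22 (-0.10, 0.0106), but not without N22 DMSO 2 (0.0961) or WT DMSO 2 (0.0872), in DESeq2 (0.0629), with no filter on low counts (0.0854), with a GC content offset (-0.06, 0.106) or with the replicate block and that offset (0.0877).

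With GSK-3484862, the collagen IV difference of N22 from WT was still present and that of KO22 was not called. In KO22, 6 members were called (1 higher, 5 lower), where 22.4% of all genes were (12.3% higher, 10.1% lower), and in N22 5 members (0 higher, 5 lower), where 9.65% of all genes were (5.05% higher, 4.60% lower). Col4a1 was 0.07 ± 0.07 from WT in KO22 (adjusted p = 0.519) and -0.85 ± 0.08 in N22 (1e-13), and Col4a2 was -0.03 ± 0.11 in KO22 (0.897) and -1.07 ± 0.12 in N22 (7.68e-11). Lamb1 was lower in KO22 here too, at -0.51 ± 0.05 (2.63e-12), and was called in N22 at -0.20 ± 0.05 (0.00675), a call lost without WT GSK 2 (0.133) or N22 GSK 1 (0.187). Hspg2 was lower in both clones (-0.31 ± 0.03 in KO22, 7.2e-10, and -0.43 ± 0.03 in N22, 3.16e-13), and Sparc was higher in KO22 (0.30 ± 0.03, 7.8e-11).

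Smaller differences were also called with the compound. In KO22, Lamc1 was called at -0.13 ± 0.03 (adjusted p = 0.000423), Nid1 at -0.13 ± 0.04 (0.0136) and Lama5 at -0.12 ± 0.04 (0.0295). The Nid1 call was lost without WT GSK 1 (0.0657) or KO22 GSK 1 (0.157), and the Lama5 call without WT GSK 2 (0.302) or KO22 GSK 1 (0.599), in DESeq2 (0.0674) and with only KO22 and WT in the fit (0.0529). In N22, Lama1 was called at -0.18 ± 0.05 (0.00777), but not without WT GSK 2 (0.158) or N22 GSK 1 (0.239).

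**Figure D3:**
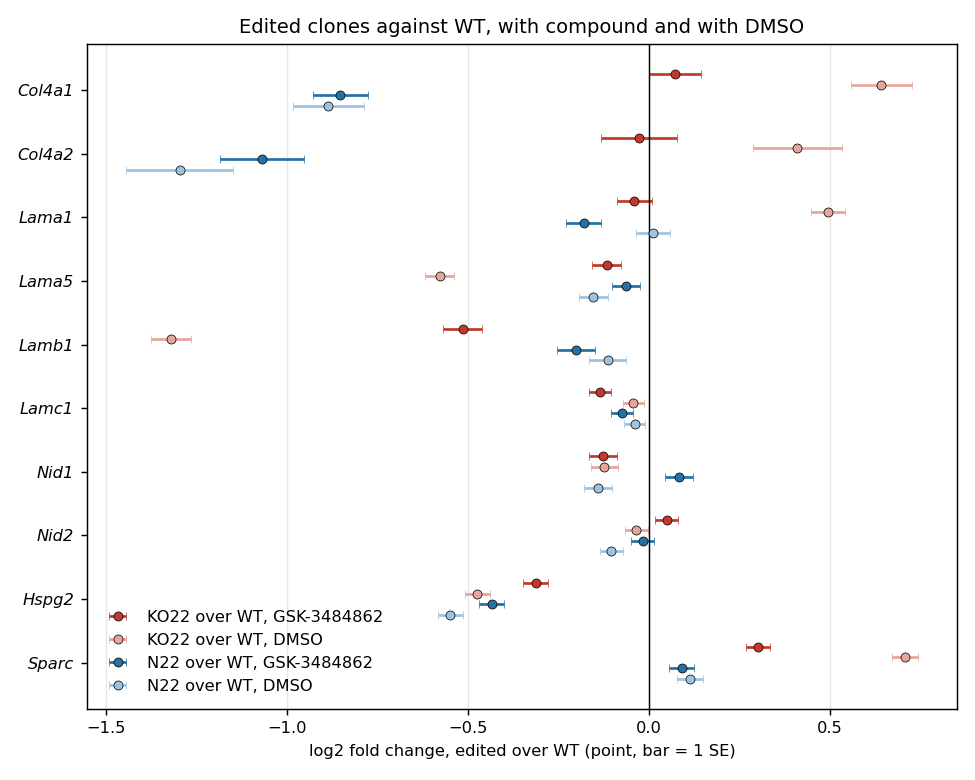
Log2 difference of KO22 and of N22 from WT, with GSK-3484862 and with DMSO, for each gene (point, with a bar of 1 SE, 2 libraries per group). N22 lies left of 0 for both collagen IV genes under both conditions, and Lamb1 in KO22 lies at -1.32 with DMSO and at -0.51 with the compound.

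The ratios between laminin chains also differed. Per kilobase, Lamc1 exceeded Lamb1 11.6 to 11.9 times in KO22 with GSK-3484862 and 18.6 to 19.1 times with DMSO, against 8.90 to 9.17 times and 7.69 to 7.82 times in WT. The ratio of Lama5 to Lama1 was 2.06 to 2.22 in KO22 with the compound and 1.078 to 1.11 with DMSO, and it was 2.25 to 2.26 and 2.23 to 2.37 in WT. With the compound KO22 thus lay nearer to WT in both ratios. In E14 of the untreated set the ratios were 15.1 to 17.6 and 1.11 to 1.29, so KO22 with DMSO lay nearer to E14 than to WT. The share of collagen IV in the summed level of the 10 genes was 2.14% to 2.19% in KO22 with the compound and 1.28% to 1.29% with DMSO, 1.11% to 1.22% and 0.441% to 0.492% in N22, and 2.04% to 2.19% and 0.871% to 0.874% in WT.

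In the untreated set, 3 of the 10 genes were called between Dux-KO and E14 (2 higher, 1 lower), where 20.4% of 14796 genes were called (9.26% higher, 11.1% lower). Nid2 stood at 112, 130.3 and 146 FPKM in the libraries labelled Dux-KO clones 15, 22 and 52, against 91.4, 103 and 97.3 in E14, and was higher by 0.41 ± 0.12 (adjusted p = 0.0282). Sparc stood at 113, 93.4 and 108 FPKM in the same libraries, against 72.1, 76.4 and 76.2 in E14, and was higher by 0.49 ± 0.15 (0.0365). Hspg2 stood at 27.6, 43.2 and 38.81 FPKM in the same libraries, against 49.7, 56.7 and 55.5 in E14, and was lower (log2 -0.56 ± 0.16, 0.0302). When the library labelled Dux-KO clone 22 was left out, a step chosen after seeing the data for the gene lists and planned for the members, all 3 calls held, at 0.41 ± 0.13 for Nid2 (0.0464), 0.56 ± 0.15 for Sparc (0.0247) and -0.71 ± 0.17 for Hspg2 (0.0131). None of these values overlapped between the groups, but how often that held over all genes was not counted. For all 3 genes the E14 libraries lay closer together than the Dux-KO clones. Each call was lost without any 1 of the E14 libraries (adjusted p from 0.0588 to 0.128) or without Dux-KO clone 52 (0.0579 to 0.0967). Those of Hspg2 (0.0773) and Sparc (0.0944) were also lost without clone 15. With a GC content offset and all 3 clones, Nid2 (0.19, 0.378) and Sparc (0.34, 0.170) were no longer called.

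Collagen IV levels in the library labelled Dux-KO clone 22 differed from those in the other Dux-KO clones, which were close to each other. Col4a1 stood at 5.44 and 5.20 FPKM in Dux-KO clones 15 and 52 and at 1.79 FPKM in the library labelled Dux-KO clone 22, against 2.59, 2.68 and 2.95 FPKM in E14. Col4a2 stood at 2.81 and 2.23 FPKM in clones 15 and 52 and at 0.898 in the library labelled Dux-KO clone 22, against 0.880, 1.12 and 1.14 in E14. With all 3 clones neither was called, at 0.60 ± 0.38 for Col4a1 (adjusted p = 0.295) and 0.92 ± 0.39 for Col4a2 (0.114). With the library labelled Dux-KO clone 22 left out, both were called, at 0.95 ± 0.28 for Col4a1 (0.0338) and 1.26 ± 0.30 for Col4a2 (0.0139), and 5 members were called in all (4 higher, 1 lower), where 23.4% of 15238 genes were. This was the only 1 of 15 alternatives that called either gene, and it removes the Dux-KO library with the lowest level of both. The KO22 DMSO libraries of the treated set had Col4a1 above their WT, whereas the library labelled Dux-KO clone 22 had it below E14. The titles do not say whether these are the same clone. Fragments of 5 Zscan4 genes numbered 49 in the library labelled Dux-KO clone 22 and 0 in each KO22 DMSO library. They numbered 5 and 22 in Dux-KO clones 15 and 52, and 38, 51, 12 and 5 in Dux (n=1) clones 17, 22, 31 and 40. Reads that map to several places were not counted for these genes either. Whether the label is right was not tested.

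Lamb1 and Lama5 varied between clones too. Lamb1 stood at 5.45, 8.55 and 4.602 FPKM in the libraries labelled Dux-KO clones 15, 22 and 52, at 8.96, 10.1, 4.97 and 5.44 FPKM in Dux (n=1) clones 17, 22, 31 and 40, and at 5.09, 6.24 and 5.56 FPKM in E14. The 3 libraries with the most Lamb1, Dux (n=1) clones 17 and 22 and the one labelled Dux-KO clone 22, also had the least Col4a1 in the untreated set. However, Dux (n=1) clone 31 had nearly as little Col4a1 (2.16 FPKM, against 2.11 in clone 17) with 4.97 FPKM of Lamb1. Lama5 was highest in 2 of the 3 libraries with the most Lamb1. It stood at 23.9 FPKM in Dux (n=1) clone 22 and 20.1 FPKM in the library labelled Dux-KO clone 22, against 15.4 to 19.0 FPKM in E14. Neither gene was called in Dux-KO (0.14, adjusted p = 0.767, for Lamb1, and -0.13, 0.721, for Lama5), nor with the library labelled Dux-KO clone 22 left out (-0.17, 0.699, for Lamb1, and -0.34, 0.291, for Lama5).

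**Figure D4:**
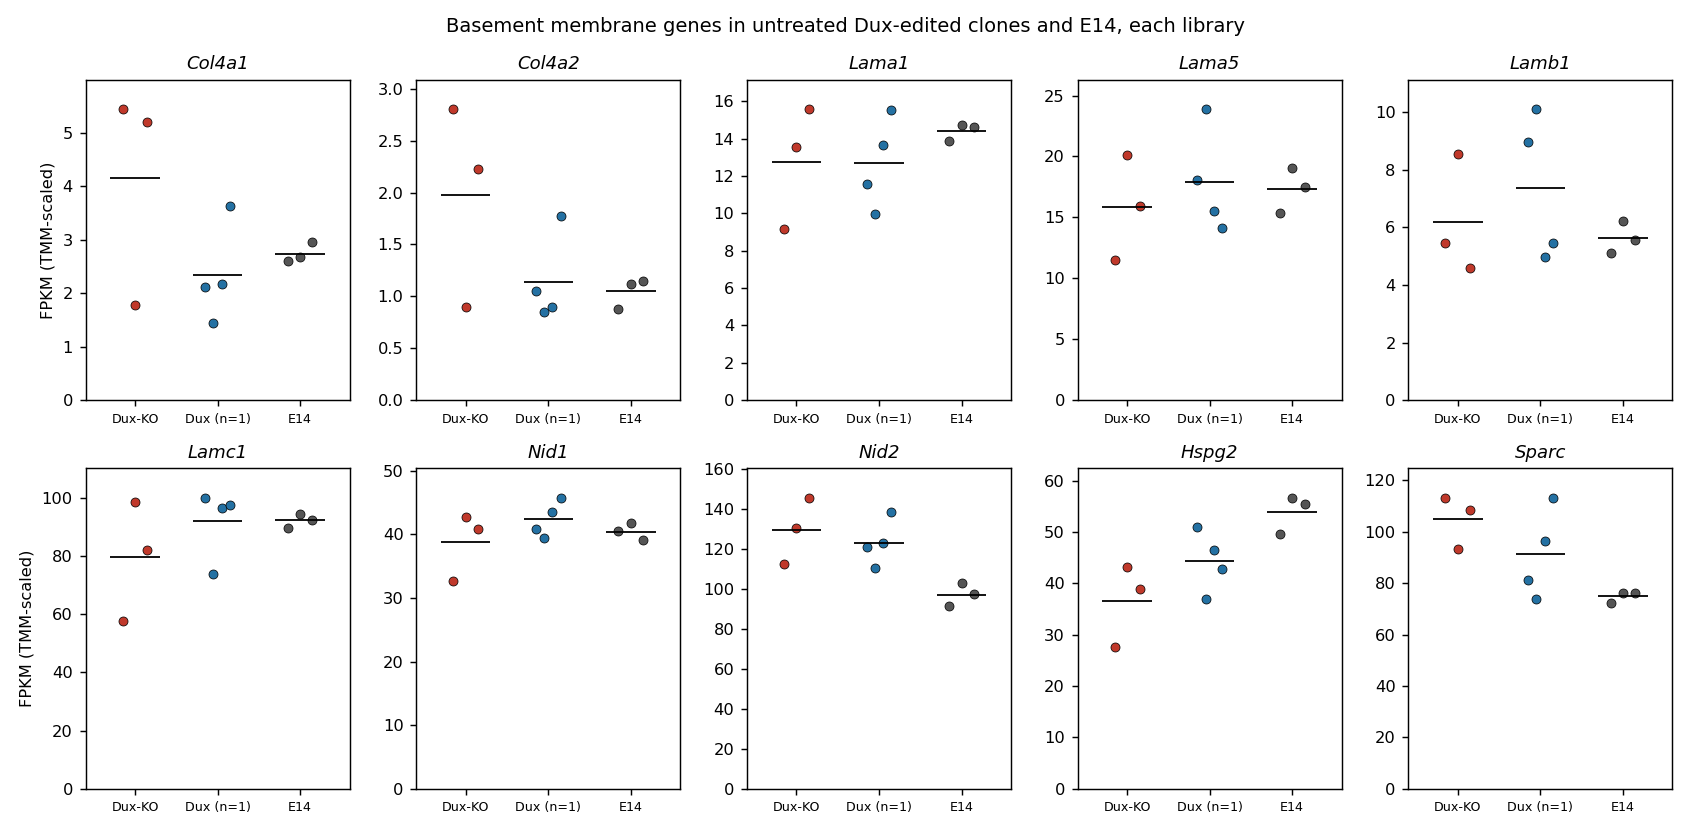
Level of each gene (FPKM, TMM-scaled) in each untreated library of Dux-KO, Dux (n=1) and E14; each point is a library and each line the group mean. Nid2, Sparc and Hspg2 in Dux-KO do not overlap E14 (overlap was not counted over all genes), and Col4a1 in Dux-KO spans 1.79 to 5.44 FPKM.

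Dux (n=1) clones were not called apart from E14 for any member, where 9.16% of all genes were called (4.88% higher, 4.28% lower). That share rests on 1355 genes, a count of 24 to 2515 when 1 library was left out (24 without E14 1) and of 308 with a GC content offset. Nid2 stood at 121, 110.4, 123 and 139 FPKM in Dux (n=1) clones 17, 22, 31 and 40, all above the 91.4 to 103 FPKM of E14 (0.34 ± 0.11, adjusted p = 0.0691). It passed in DESeq2 (0.0385), with only these groups in the fit (0.0235), without Dux-KO clone 15 (0.0250) and without Dux (n=1) clone 22 (0.0467). Col4a1 stood at 2.11, 1.44, 2.16 and 3.63 FPKM in Dux (n=1) clones 17, 22, 31 and 40, on both sides of the E14 values. Between Dux (n=1) and Dux-KO edgeR called 0 members and 0% of all genes, in either direction (856 genes had an unadjusted p below 0.05, and DESeq2 called 0 as well), with Col4a1 at -0.83 ± 0.35 and Col4a2 at -0.79 ± 0.35 (adjusted p = 0.85 each).

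**Figure D5:**
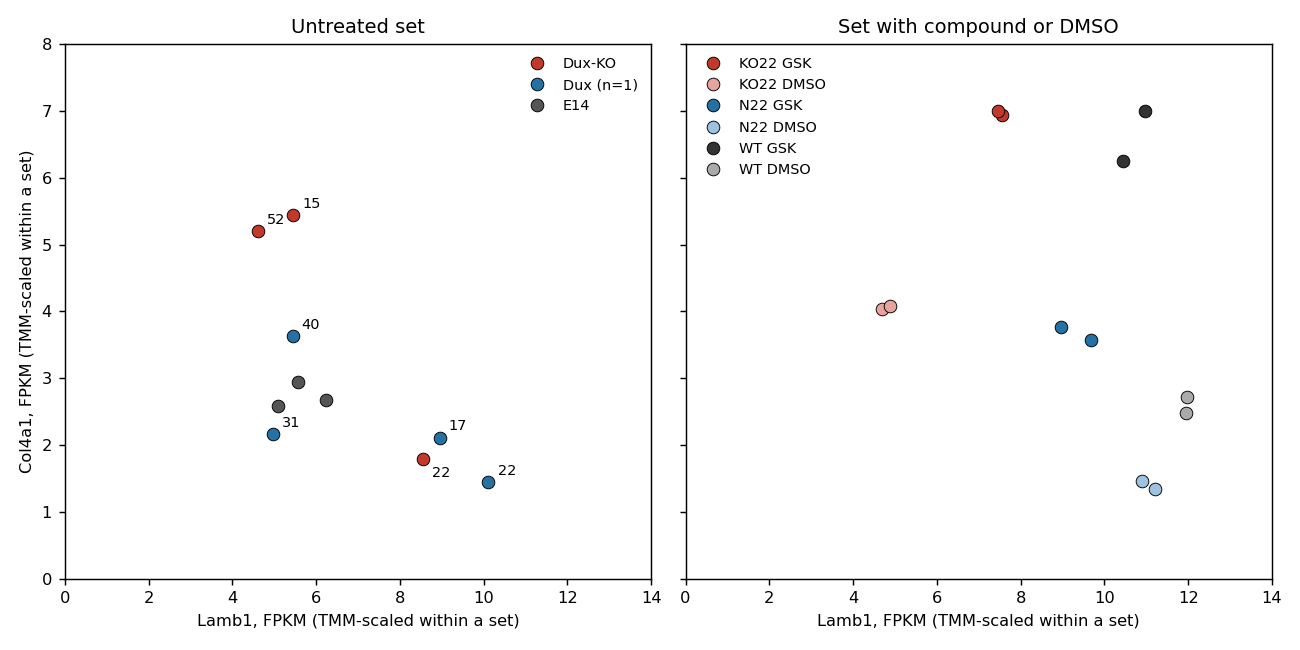
Level of Col4a1 against that of Lamb1 (FPKM, TMM-scaled within a set) in each library, with the untreated set on the left (Dux-KO and Dux (n=1) points carry their clone number) and the treated set on the right. The libraries with over 8 FPKM of Lamb1 in the untreated set have at most 2.11 FPKM of Col4a1, but Dux (n=1) clone 31 has 2.16 FPKM with 4.97 FPKM of Lamb1. In KO22 both genes lie higher with the compound.

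Among other basement membrane components, Lama3 and Npnt rose with the compound in all 3 genotypes. Of 18 other basement membrane components that were tested, 6 rose and 3 fell with GSK-3484862 in KO22, 9 rose and 2 fell in N22, and 11 rose and 4 fell in WT, where 46.0% of all genes were called in KO22, 53.0% in N22 and 56.8% in WT, with median log2 changes of 0.79 in KO22, 0.67 in N22 and 0.59 in WT. Lama3, an alpha chain of epithelial laminin, rose by 1.68 ± 0.13 in KO22 (adjusted p = 1.43e-17), 1.67 ± 0.11 in N22 (8.45e-21) and 1.41 ± 0.12 in WT (1.54e-16). Npnt (nephronectin, an integrin ligand) rose by 1.74 ± 0.24 in KO22, 1.89 ± 0.23 in N22 and 1.40 ± 0.19 in WT, while Fbln1, which encodes the matrix protein fibulin, changed by -0.80 ± 0.06 in N22 and -1.17 ± 0.06 in WT. Frem2, a component of a matrix complex beneath embryonic epithelia, rose by 1.73 ± 0.15 in KO22 and had the list's largest contrast between KO22 and WT among its well-counted genes (2.37 ± 0.18, 1.68e-17). For this list and those below, a gene's value is printed only where it was among the list's 3 largest called changes. A genotype without a printed value may have changed too.

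The enzymes and chaperones that fold, modify and crosslink collagen moved in both directions. Of 15 tested, 8 rose and 4 fell in KO22, 8 rose and 5 fell in N22, and 7 rose and 4 fell in WT, beside the shares of all genes just given, with median log2 changes of 0.18 in KO22, 0.15 in N22 and 0.08 in WT. Loxl2, an enzyme that crosslinks collagen IV, changed by -2.27 ± 0.38 in KO22 (adjusted p = 9.21e-07), -3.65 ± 0.30 in N22 (3.24e-17) and -2.83 ± 0.27 in WT (2.12e-14). P4ha1, a catalytic subunit of collagen prolyl hydroxylase, changed by -1.49 ± 0.08 in N22 and -1.43 ± 0.08 in WT, and its response in KO22 was 1.16 ± 0.12 above that of WT (1.02e-11). Plod2, which hydroxylates lysine in collagen, rose by 1.37 ± 0.06 in KO22 (2.12e-28), and Pxdn (peroxidasin, which forms the sulfilimine bonds of collagen IV) by 1.20 ± 0.10 (1.11e-14). With DMSO, the log2 difference of KO22 from WT was -1.69 ± 0.08 for P4ha1 (7.16e-28) and -2.13 ± 0.15 for P4ha2 (1.65e-20).

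Among 14 tested receptors for basement membrane, 6 rose and 3 fell in KO22, 9 rose and 2 fell in N22, and 9 rose and 2 fell in WT, where 46.0% of all genes were called in KO22, 53.0% in N22 and 56.8% in WT. The collagen receptor Ddr1 rose by 0.79 ± 0.06 in KO22 (adjusted p = 3.42e-16) and 0.74 ± 0.06 in WT (7.37e-16), and the related Ddr2 rose by 2.02 ± 0.18 in N22 (7.05e-16) and 1.42 ± 0.18 in WT (2.95e-10). Itga3, the alpha subunit of a laminin-binding integrin, was 1.17 ± 0.05 higher in KO22 than in WT with DMSO (7.62e-31). It was 1.21 ± 0.37 higher in Dux-KO than in E14 (0.0421), and 1.56 ± 0.26 higher when the library labelled Dux-KO clone 22 was left out (0.0032). Of 9 tested matrix proteases and inhibitors, 2 rose and 1 fell in KO22, 2 rose and 2 fell in N22, and 2 rose and 3 fell in WT, beside those same shares of all genes. Mmp9, which cleaves collagen IV, rose by 1.49 ± 0.23 in KO22 (1.16e-07), 0.70 ± 0.24 in N22 (0.0112) and 1.13 ± 0.22 in WT (1.26e-05). In the untreated set, 4 of 14 tested folding and crosslinking genes were higher and 1 lower in Dux-KO than in E14, where 20.4% of all genes were called (9.26% higher), and 5 were higher and 1 lower when the library labelled Dux-KO clone 22 was left out, where 23.4% of all genes were. The collagen chaperone Serpinh1 was higher by 1.08 ± 0.25 with it (0.0137) and by 1.33 ± 0.20 when it was left out (0.00205), and the lysyl hydroxylase Plod1 by 0.80 ± 0.18 (0.0127) and 0.94 ± 0.18 (0.00509). Whether the Dux-KO calls of Itga3, Serpinh1 and Plod1 hold under the other alternatives was not tested. Over all genes, the 3016 calls of that comparison fell to 931 without E14 1 and to 945 with a GC content offset.

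Markers of primitive and parietal endoderm, cell types that make much basement membrane, were low in all libraries, and their sums were higher with the compound. The 9 primitive endoderm markers summed to 4.71 to 4.72 FPKM in KO22 with GSK-3484862 and 2.91 to 2.97 with DMSO, 3.50 to 4.26 and 1.56 to 1.81 in N22, and 5.46 to 5.48 and 2.19 to 2.74 in WT. Of these 9, 4 rose and 1 fell in KO22, 4 rose in N22 and 7 rose in WT, and 4, 5 and 2 were not called. Over all genes, 46.0% were called in KO22, 53.0% in N22 and 56.8% in WT. The log2 changes of the 9 spanned -0.64 to 3.27 in KO22, -1.18 to 2.92 in N22 and -0.47 to 6.46 in WT. Among those that rose was the transcription factor Gata6 (2.19 ± 0.30 in KO22, 1.72 ± 0.31 in N22 and 1.497 ± 0.25 in WT). The 5 parietal endoderm markers summed to 4.54 to 5.44 FPKM with the compound and 1.86 to 1.95 with DMSO in KO22, 4.14 to 4.37 and 2.49 to 2.78 in N22, and 5.64 to 5.86 and 2.63 to 3.31 in WT. Over the same libraries the ES cell markers summed to 2431 to 2454 FPKM with the compound and 2889 to 2938 with DMSO in KO22, 2407 to 2493 and 2980 to 3032 in N22, and 2445 to 2472 and 3338 to 3343 in WT. The part of such cells in the rise of Col4a1, Col4a2 and Sparc was not tested.

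Among the remaining marker lists, trophoblast markers had the highest sums. The 6 visceral endoderm markers summed to at most 3.52 FPKM in any library, with Afp and Ttr at 0 counts in all E14, Dux-KO, KO22 DMSO and N22 DMSO libraries. Their sums were 2.15 to 2.37 FPKM with the compound and 1.37 to 1.38 with DMSO in KO22, and 1.98 to 2.335 and 1.54 to 1.71 in N22. In WT they were lower with the compound, at 2.40 to 2.44 against 3.09 to 3.17. Of 3 tested, 2 rose in KO22, 2 rose in N22, and 1 rose and 1 fell in WT. Endothelial markers summed to 2.96 to 3.08 FPKM with the compound and 1.25 to 1.26 with DMSO in KO22, 5.66 to 6.35 and 1.53 to 1.75 in N22, and 5.86 to 6.01 and 1.83 to 2.30 in WT, and Emcn was at 0 counts in all 22 libraries. Fibroblast (feeder) markers summed to at most 3.85 FPKM in any library, with 2.77 to 2.84 with the compound and 2.08 to 2.35 with DMSO in KO22, 2.13 to 2.64 and 2.21 to 2.49 in N22, and 2.41 to 2.59 and 2.92 to 3.19 in WT. Over all genes, 46.0% were called with the compound in KO22, 53.0% in N22 and 56.8% in WT. Of 6 tested fibroblast markers, 4 rose and 1 fell in KO22, 5 rose and 1 fell in N22, and 5 rose and 1 fell in WT. The 1 that fell was Pdgfrb, at -1.84 in WT, and the largest rise there was that of Col5a2, at 4.54. Trophoblast markers summed to 25.8 to 27.6 FPKM with the compound and 20.4 to 21.0 with DMSO in KO22, 37.0 to 38.3 and 29.7 to 30.9 in N22, and 35.1 to 40.5 and 37.8 to 39.0 in WT. In the untreated set, primitive endoderm markers summed to 2.32 to 3.13 FPKM in Dux-KO, 1.89 to 2.66 in Dux (n=1) and 2.21 to 2.53 in E14, and endothelial markers to 1.24 to 1.97, 1.55 to 2.49 and 4.86 to 4.96 FPKM. The part of such cells in the differences between genotypes was not tested.

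Over the 9 group means, each centred within its set, the gene whose pattern lay nearest to Col4a1 among 9107 well-expressed candidates was Col4a2, at a root mean square distance of 0.15 log2. The nearest genes outside the list were Cald1 (0.26), Rxra (0.28), Dnmt3l (0.29), Vgll4 (0.29) and Peg10 (0.31). Sparc ranked 95 in nearness to Col4a1 (0.44), and Lamb1 ranked 8371 (0.88). The genes nearest to Lama1 were Eri1, Mrps22, Fam136a, Snx12 and Smim3 (each 0.07), and its partner chain Lamc1 ranked 2188 (0.18). These distances describe 9 group means from 22 libraries and carry no test.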

How the data were processed

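Gene counts of 22 mouse ES cell libraries, made from 1 ug of total RNA with the VAHTS Universal V6 kit per the labels' protocols, were used as deposited. The authors' files hold raw counts of fragments per gene over exons of Ensembl 84 on GRCm38; per the file headers, read pairs were counted (22 of 22 files), and neither strand nor multi-mapping reads were used (0 of 22). The submitters' processing notes also list fastp 0.23.2, HISAT2 2.1.0, featureCounts 2.0.1 and DESeq2 1.40.2.

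Symbols came from GENCODE M21 (47224 of 47729 identifiers matched). In R 4.3.3, edgeR 4.0.16 fitted all groups of a set together, with group as the only term, after TMM scaling and a filterByExpr step whose count minimum was 10; the quasi-likelihood fit was robust. The common biological coefficient of variation was 0.208 over the 14796 genes tested in the untreated set and 0.0435 over 16641 in the treated set, and all 10 members were tested in both. Genes with a Benjamini-Hochberg adjusted p below 0.05 over all genes were called in 12 comparisons. FPKM were computed from the counts, the deposited exon lengths and TMM-scaled totals. The fitting step was tested on simulated data. No libraries held identical values (0 pairs). Same-numbered libraries of the treated set did not deviate together (30 correlations, -0.017 to 0.032), so the numbers were not used as pairs. With 2 libraries per group, deviations from the group mean mirror each other, so each correlation recurs for both numbers and the 30 are not independent.

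As alternatives, DESeq2 1.42.0, RLE in place of TMM, no low-count filter, a fit of only the compared groups, a GC content offset, a replicate block and leaving out each library in turn were run. Every member is named; of each further list, genes were taken from its 3 largest called changes whose mean log2 CPM reached 1, and some of these are printed. The members and lists were chosen with earlier results of these data known.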

Additional observations from a re-analysis of the deposited data

Results flagged for a closer look

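For 7 members the response to GSK-3484862 differed between KO22 and WT by the interaction test of edgeR, in which 31.8% of all genes were called. The contrasts, KO22 response minus WT response on the log2 scale, were 0.81 for Lamb1, 0.46 for Lama5, 0.16 for Hspg2, -0.57 for Col4a1, -0.53 for Lama1, -0.44 for Col4a2 and -0.41 for Sparc. The Hspg2 contrast was -0.0403 with a GC content offset (adjusted p = 0.513), and the Col4a2 call was lost in DESeq2 (0.0653) and without any 1 of 4 libraries (KO22 DMSO 1, KO22 GSK 2, WT DMSO 2 or WT GSK 2). With N22 in place of KO22, the only called contrast was 0.22 for Nid1.

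Among the 4 Dux (n=1) libraries, Lamc1 in clone 22 stood apart at 73.9 FPKM, against 96.6 to 100.02 FPKM in the other clones. The gap to its nearest neighbour was 0.869 of the group's whole range. This test flags about 1 in 20 groups by chance, and 10 genes were tried.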

How the results depend on the processing

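Of 2160 values of a member under an alternative, 2069 kept their side of the threshold, 59 lost a call in the same direction, 30 gained one and 2 called values changed sign. In 49 further values, called neither before nor after, the sign changed as well. Both called values that changed sign were the difference of the Hspg2 response between KO22 and WT, which became -0.0403 with a GC content offset (adjusted p = 0.513) and -0.0406 with the replicate block and that offset together (0.459). The counts of members called for GSK-3484862 within KO22, N22 and WT, for KO22 against WT and for the KO22 and WT responses stayed within 1.5 times. For Dux-KO against E14 the count was 3, with 1 under the GC content offset and 0 to 5 when 1 library was left out (5 without the library labelled Dux-KO clone 22, 0 without any 1 of the E14 libraries or clone 52). For Dux (n=1) against E14 it was 0, with 1 in DESeq2, 1 when just the 2 groups were fitted and 0 to 1 when 1 library was left out. For the N22 and WT responses it was 1, and 2 with RLE factors, with no filter, with the GC content offset, with the replicate block and with the block and offset together, and 1 to 2 when 1 library was left out. For N22 against WT, leaving out 1 library gave 4 to 7 members with DMSO (4 without WT DMSO 2) and 3 to 5 with GSK-3484862 (3 without WT GSK 2 or N22 GSK 1). The cause of these changes was not tested. Replicate numbers of the treated set share only a number: with the block, the member gained was Lama1 (N22 minus WT, -0.19, adjusted p = 0.0416). No block was fitted in the untreated set, where the groups share only clone number 22. Over all genes, Dux-KO against E14 had 3016 calls (45.4% higher), 945 under the GC content offset (62.1% higher) and 931 to 3996 when 1 library was left out; Dux (n=1) against E14 had 1355, 2515 in DESeq2, 2450 when just the 2 groups were fitted, 308 under the offset and 24 to 2515 when 1 library was left out. DESeq2 called 1178 genes against 1844 for the N22 and WT responses, 2451 against 3728 for KO22 against WT with GSK-3484862 and 935 against 1606 for N22 against WT with it, the last at 884 to 1632 when 1 library was left out, and N22 against WT with DMSO had 2811 against 4221 without N22 DMSO 2. The median change of all genes stayed within 0.0525 log2 of 0 under every scaling. Leaving out 1 of 2 libraries assumes that the other varies like the rest of its set. Counts limit the precision of collagen IV most: Col4a2 had 69 and 84 fragments and Col4a1 180 and 203 in N22 with DMSO, against 13534 and 13783 for Lamc1.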
